A study of Mus musculus with 2 samples.

Results

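The genes described here were the Notch ligands *Jag1*, *Jag2* and *Dll4*, the receptors *Notch1*, *Notch2*, *Notch3* and *Notch4*, and the target genes *Hes1*, *Hey1* and *Heyl*, 10 of the 31053 genes in the count tables. They were chosen by symbol, and no measured value entered the choice. The cells came from the lungs of *Pclaf* WT mice and of *Pclaf* KO mice, which lack the PCNA-binding factor PCLAF from the germline on. All mice were 8 to 10 weeks old and had received bleomycin, an agent that injures the alveolar epithelium, at 1.35 U/kg by the series description, 1 week before the cells were taken. Each genotype gave 1 droplet-based single-cell RNA library, and how many mice entered a library is not given in the sources used here. With 1 library per genotype there was no replicate error, no test was made between genotypes, and every interval below covers counting error only.

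Notch receptors are cell-surface proteins that are activated by ligands on a neighbouring cell, so that a cell with a ligand acts as the sender and a cell with a receptor as the receiver. After ligand binding the receptor is cut by ADAM proteases and gamma-secretase, and its inner part enters the nucleus, where it joins RBPJ and turns on genes such as the HES and HEY repressors. In vessels DLL4, NOTCH1 and NOTCH4 are known for arterial fate and sprouting, NOTCH3 for the cells of the vessel wall, and in airways JAG ligands and NOTCH receptors are known for the choice between secretory and ciliated fate.

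The WT library held 30669 barcodes with a median of 2105 unique molecular identifiers (UMIs, counted molecules) and the KO library 17172 barcodes with a median of 5682, and 163 barcode sequences occurred in both. Filters on genes and mitochondrial UMIs kept 98.4% of WT and 91.1% of KO barcodes. Cells were then assigned to a lineage and a cell type by counting detected marker genes, and each cell type name below stands for the cells that passed such a gate. None of the 10 Notch genes was a gating marker. Although both libraries were labelled as EpCAM-positive epithelial cells sorted free of CD31 and CD45, only 3.51% of kept WT cells passed the epithelial gate against 63.0% in KO, whereas 28.0% and 2.97% were endothelial, 9.60% and 17.9% mesenchymal, and 41.9% and 3.85% immune. *Pclaf* itself was at 39.3 CPM (counts per 1000000 UMIs) in kept WT cells and at 5.19 CPM in KO cells. Within cell types it was at 9.24 (WT) and 4.73 (KO) CPM in AT2 cells and 51.5 and 30.2 CPM in T cells. Larger falls were seen in alveolar macrophages, at 106 and 12.1 CPM, and interstitial macrophages, at 70.6 and 24.3 CPM. Classical monocytes had 44.0 CPM and B cells 21.8 CPM in WT, and both had 0 in KO, from 59 and 64 KO cells. At least 3 cell cycle markers were detected in 29 of 654 WT and 0 KO classical monocytes, and in 36 of 2559 WT and 0 KO B cells. For alveolar macrophages these were 88 of 899 and 8 of 74 cells, and for interstitial macrophages 194 of 2231 and 5 of 97. The part of cycling cells in the *Pclaf* values was not tested. AT1 cells had 0 and 0.42 CPM of *Pclaf*. It was at 1.27 and 4.38 CPM in club cells and 1.34 and 2.22 CPM in ciliated cells, so that its RNA was still counted in KO. In WT club cells 1.27 CPM stands for 1 UMI. The exact Poisson interval of that count, 0.03 to 7.08 CPM, includes the KO value. The WT ciliated value was about as low, over 746696 UMIs, so no direction can be read in club or ciliated cells. The female transcript *Xist* was at 254 (WT) and 498 (KO) CPM, while the study's methods name male mice. In 24 cell types of WT and 16 of KO at least 50 cells passed the gate, and 15 types did so in both.

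In the WT library the Notch genes fell into vessel, mural, airway and myeloid patterns. Over the 24 WT cell types, 6 of the 10 genes had their highest level in an endothelial or mural type, namely *Notch1*, *Notch3*, *Notch4*, *Dll4*, *Hey1* and *Heyl*, against 30.8% of all genes. In KO the same count was 6 of 10 against 21.2% of all genes, with 3 endothelial or mural types left to compare in place of 7. The other genes peaked in ciliated cells (*Jag1* and *Jag2*), club cells (*Hes1*) and neutrophils (*Notch2*) in WT.

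**Figure D1:**
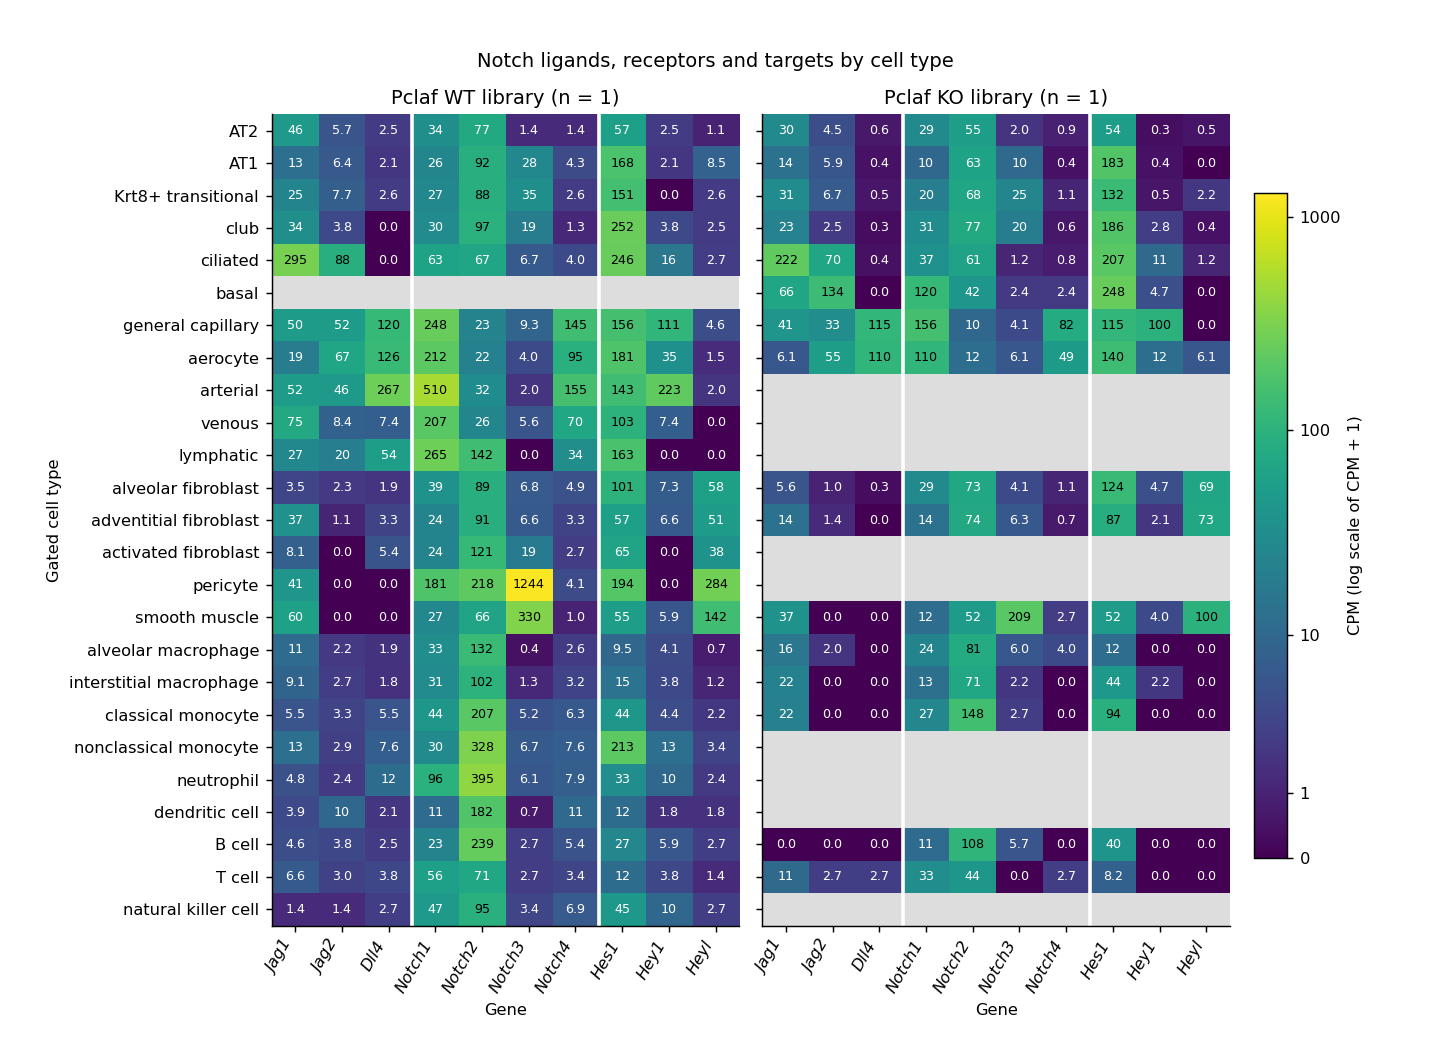
Level of each Notch gene (columns) in each gated cell type (rows) of the *Pclaf* WT and *Pclaf* KO libraries, in CPM of the summed UMIs of the type, on a log colour scale of CPM + 1; grey marks types with under 50 cells. *Dll4*, *Notch4* and *Hey1* stand out in the endothelial rows, *Notch3* and *Heyl* in the mural rows, and *Jag1* in ciliated cells.

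*Dll4*, the ligand of arteries and capillaries, was at 267 CPM in WT arterial cells (exact 95% Poisson interval 224 to 316), at 126 CPM in aerocytes, the large gas-exchange capillary cells (111 to 143), and at 119.6 CPM in general capillary cells (114 to 125). The arterial level stood clear of both capillary levels, and the capillary levels overlapped. In venous cells *Dll4* was at 7.43 CPM (3.21 to 14.6), and pericytes and smooth muscle cells gave 0 UMIs. Of the WT arterial cells 45.3% had at least 1 *Dll4* UMI, of general capillary cells 23.4% and of venous cells 2.76%, at median depths of 2433, 2121 and 3186 UMIs, against 1.19% of AT2 cells, which should lack the gene, at a median of 5226. After each cell was thinned to 1000 UMIs the shares were 26.6%, 12.3% and 1.15%, and 0 of 504 AT2 cells had a UMI (upper bound 0.729%). *Dll4* thus separated arterial and capillary from venous cells, although all were gated on the same endothelial list.

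*Jag1*, the ligand of several receptors in airway and vessel wall, was highest in ciliated cells, at 295 CPM in WT (257 to 336) and 222 CPM in KO (212 to 233). The next WT types were venous (75.3 CPM), smooth muscle (59.7), arterial (52.2), general capillary (50) and AT2 cells (45.8), whose neighbours in this order had overlapping intervals. AT1 cells, the flat gas-exchange epithelium, were at 12.8 (WT) and 13.8 (KO) CPM, and Krt8+ transitional cells, a state on the way from AT2 to AT1, at 24.5 and 31.0 CPM. *Jag1* therefore differed within the epithelium by a wide margin, with ciliated cells above every other epithelial type in both libraries. A UMI of *Jag1* was seen in 75.6% of WT ciliated cells and 19.4% of WT AT2 cells, at median depths of 5818 and 5226 UMIs, and in 21.8% and 4.56% after thinning.

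*Jag2*, the other Serrate-type ligand, was at 88.4 CPM in WT ciliated cells (68.4 to 112), 66.7 CPM in aerocytes (55.9 to 79.1), 51.6 CPM in general capillary cells (48.2 to 55.2) and 46.2 CPM in arterial cells (29.3 to 69.3). Venous cells were at 8.36 CPM (3.82 to 15.9), and pericytes and smooth muscle cells had 0 UMIs in both libraries. Venous cells therefore lay above both capillary types for *Jag1* and below both for *Jag2*, with intervals that did not overlap. The 62 basal cells of KO, airway stem cells, had 134 CPM of *Jag2* (102 to 174), above KO ciliated cells at 69.5 CPM (63.7 to 75.7), and only 4 cells passed the basal gate in WT.

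*Notch1*, the most widely used receptor of vessels, was at 509.9 CPM in WT arterial cells (449 to 577). Lymphatic cells followed at 265 CPM (188 to 362), then general capillary cells at 248 CPM (240.1 to 255), aerocytes at 212 CPM (192 to 233), venous cells at 207 CPM (181 to 236) and pericytes at 181 CPM (132 to 243). The arterial interval overlapped none of the others. The lymphatic interval overlapped all those listed after it, and the general capillary interval overlapped that of pericytes. Aerocytes, venous cells and pericytes could not be ordered. Outside the vessels *Notch1* was lower in WT, at 96.3 CPM in neutrophils, 62.9 CPM in ciliated cells and 56.4 CPM in T cells, where it is needed for lineage commitment. It was between 23.4 and 47.4 CPM in 14 further WT types, with dendritic cells lowest at 11.2 CPM. In KO, airway basal cells had 120 CPM (89.6 to 158), which overlapped general capillary cells (132 to 182) and aerocytes (65.0 to 173).

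*Notch4*, a receptor largely restricted to endothelium, was at 155 CPM in arterial cells (122 to 193) and 145 CPM in general capillary cells (139 to 151) of WT, which overlapped. Aerocytes were at 94.8 CPM (81.8 to 109) and venous cells at 69.7 CPM (54.8 to 87.4). Unlike *Dll4*, *Notch4* was thus present in venous cells, where its interval overlapped that of aerocytes. AT2 cells had 1.42 (WT) and 0.91 (KO) CPM, and a UMI was seen in 28.8% of WT arterial and 0.792% of WT AT2 cells, or in 10.1% and 0.198% after thinning.

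**Figure D2:**
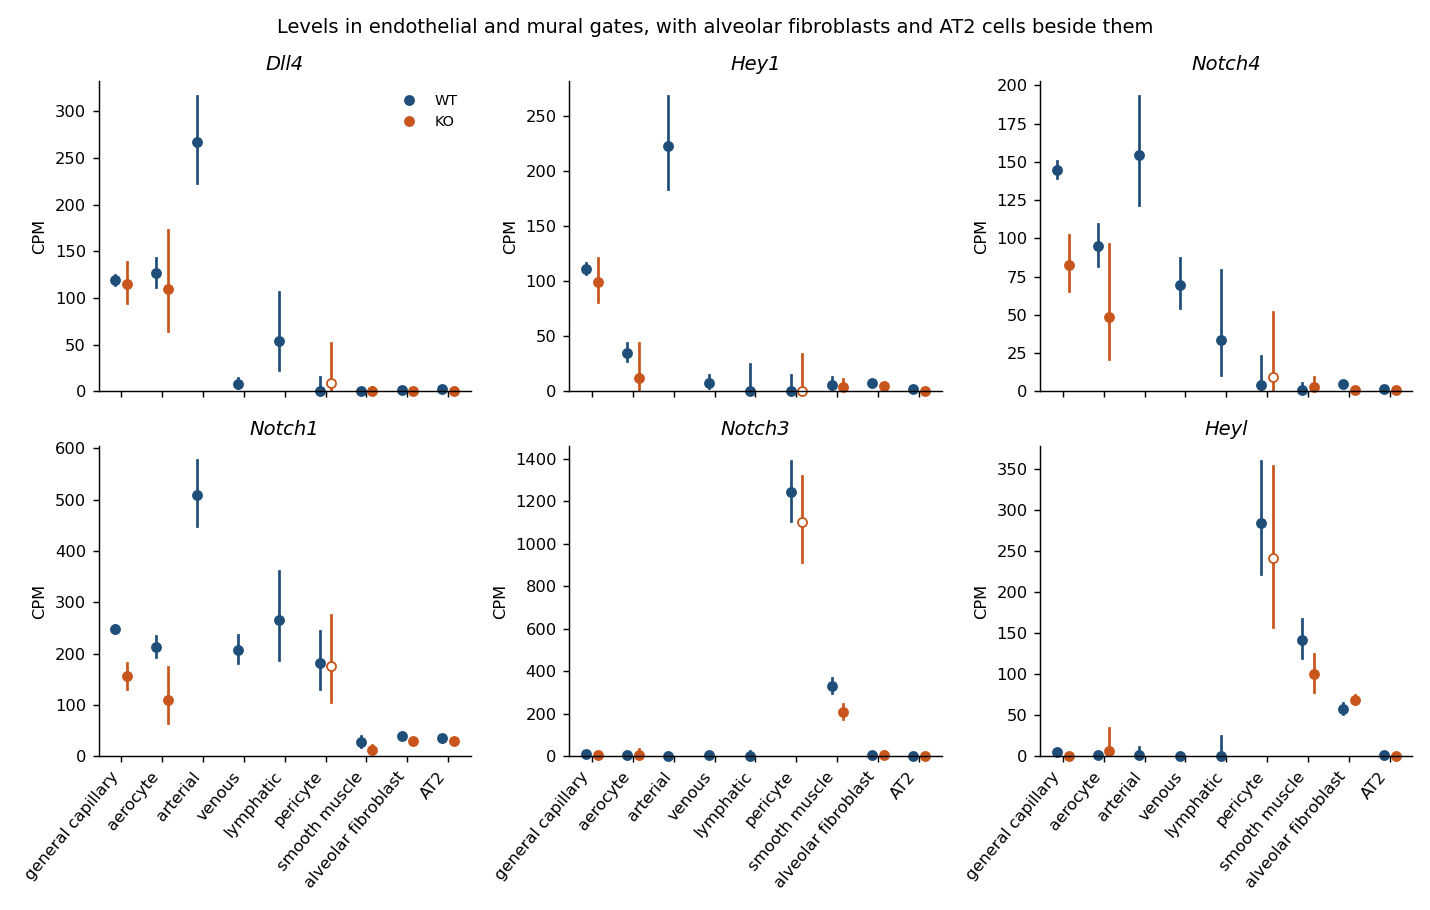
*Dll4*, *Hey1*, *Notch4*, *Notch1*, *Notch3* and *Heyl* in endothelial, pericyte and smooth muscle cells of both libraries, with alveolar fibroblasts and AT2 cells beside them, in CPM on linear axes with exact 95% Poisson intervals as bars; open points are types of 30 to 49 cells and types under 30 cells are not drawn. Arterial cells are highest for *Dll4*, *Hey1* and *Notch1*, and pericytes for *Notch3* and *Heyl*; for *Notch1* and *Notch4* the KO capillary points lie below those of WT.

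The levels of *Dll4* and *Notch4* followed each other across cell types, with a Pearson correlation of log2(CPM + 10) of 0.93 over 40 points, each a cell type in 1 library, so that points of 1 library share its depth and free RNA. Their upstream sequences are shown because these genes had the closest agreement of any pair of members. The windows come from RefSeq on GRCm38.p6, chr2:119325534-119325783 on the plus strand for *Dll4* and chr17:34564045-34564267 on the plus strand for *Notch4*, both ending on the base before the annotated gene start. Capitals mark AGGAAG or its reverse complement CTTCCT, a longer form of the ETS core GGAA.
Dll4: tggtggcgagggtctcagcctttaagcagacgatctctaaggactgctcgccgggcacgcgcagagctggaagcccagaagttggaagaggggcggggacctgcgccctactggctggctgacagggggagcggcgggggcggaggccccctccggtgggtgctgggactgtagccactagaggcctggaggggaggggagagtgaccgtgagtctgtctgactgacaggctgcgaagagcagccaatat
Notch4: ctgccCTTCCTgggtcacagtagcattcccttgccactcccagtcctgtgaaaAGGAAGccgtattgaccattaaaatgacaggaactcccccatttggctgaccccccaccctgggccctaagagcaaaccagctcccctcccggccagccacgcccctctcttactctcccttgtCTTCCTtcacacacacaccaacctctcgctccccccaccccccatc
The *Dll4* window had 65.6% G and C and the *Notch4* window 59.2%. *Notch4* held the marked letters at 3 places, starting 218, 170 and 46 bases before the window's end, and *Dll4* at none. The *Dll4* window does hold the shorter core GGAA, which was not marked. The letters occurred on either strand in 29.5% of 32851 RefSeq promoters of 250 bases and in 1 of the 7 member promoters in that table, which were those of the 3 ligands and 4 receptors. The RBPJ letters TGGGAA, or TTCCCA on the other strand, occurred in 21.6% of all promoters and in 0 of these 7. A match or its absence describes these windows only.

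In the GRCm38 annotation, *Dll4* lies on chromosome 2 from 119325784 to 119335962 on the plus strand, and *Jag1* and *Notch1* lie on the same chromosome on the minus strand, from 137081456 to 137116644 and from 26457903 to 26516663. *Notch3* and *Notch4* are both on chromosome 17, *Notch3* from 32120820 to 32166852 on the minus strand and *Notch4* from 34564268 to 34588503 on the plus strand. *Notch2* lies on chromosome 3 from 98013527 to 98150361 and *Jag2* on chromosome 12 from 112907819 to 112929776, on the plus and minus strand. The targets lie on chromosome 16 from 30064384 to 30067796 (*Hes1*, plus strand), chromosome 3 from 8663359 to 8667256 (*Hey1*, minus strand) and chromosome 4 from 123233556 to 123249875 (*Heyl*, plus strand). No member overlapped another gene on its own strand, and *Notch3* overlapped *Gm17276* on the other strand.

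*Notch3*, the receptor of the vessel wall, was at 1244 CPM in WT pericytes (1108 to 1392) and at 329.6 CPM in WT smooth muscle cells (295 to 367). The next highest WT type was Krt8+ transitional cells at 34.8 CPM (22.9 to 50.7), followed by AT1 cells at 27.7 CPM (14.7 to 47.4) and club cells at 19.1 CPM (10.7 to 31.4), whereas AT2 cells were at 1.42 CPM (0.39 to 3.64). In KO, *Notch3* was at 25.1 CPM in Krt8+ transitional cells, 19.5 CPM in club cells, 10.5 CPM in AT1 cells and 2.01 CPM in AT2 cells. Within the alveolar epithelium *Notch3* was therefore higher in the transitional and AT1 gates than in the AT2 gate, in each library and without overlap. A UMI was found in 15.4% of WT Krt8+ transitional and 0.594% of WT AT2 cells at median depths of 4949 and 5226 UMIs, against 79.4% of pericytes at 1893. After thinning, these were 4% of Krt8+ transitional cells, 0 of 504 AT2 cells (upper bound 0.729%) and 67.4% of pericytes. The mesenchymal marker list stood at 462 CPM in WT Krt8+ transitional cells and 319.9 CPM in WT AT2 cells, and its part in the *Notch3* order was not tested.

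*Notch2* had its highest levels in blood cells. WT neutrophils had 395 CPM (366 to 427), nonclassical monocytes 328 CPM (306 to 352), B cells, whose marginal zone subset needs NOTCH2, 239 CPM (227 to 251), pericytes 218 CPM (164 to 286) and classical monocytes 207 CPM (190.4 to 225). Neutrophils and nonclassical monocytes did not overlap each other or the types below. The lowest levels were in blood vessel endothelium, at 23.5 CPM in general capillary cells and 22.1 CPM in aerocytes, so that *Notch2* and *Notch4* ran in opposite directions (Pearson correlation -0.53 over the 40 points). Epithelial types were narrow in range, from 67.0 CPM in ciliated to 96.6 CPM in club cells of WT.

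*Hey1*, a repressor turned on by Notch in arteries, was at 223 CPM in WT arterial cells (183 to 268) and 111 CPM in general capillary cells (106 to 117), which did not overlap. Aerocytes had 35.1 CPM (27.4 to 44.4) and venous cells 7.43 CPM (3.21 to 14.6). *Hey1* and *Dll4* therefore shared the arterial and general capillary cells and parted in aerocytes, where *Dll4* was as high as in general capillary cells and *Hey1* was not. Pericytes had 0 *Hey1* UMIs (upper bound 15.2 CPM), although they had the highest *Notch3*. A *Hey1* UMI was seen in 40% of arterial, 21.7% of general capillary and 6.49% of aerocyte cells in WT against 1.39% of AT2 cells, or 28.8%, 9.94%, 3.02% and 0.198% after thinning.

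*Heyl*, a related repressor of mural cells, was at 284 CPM in WT pericytes (221 to 359.7), 142 CPM in smooth muscle cells (119.7 to 167), 57.6 CPM in alveolar fibroblasts (51.5 to 64.1) and 51.0 CPM in adventitial fibroblasts (37.3 to 68.0). The mural types did not overlap each other or the fibroblasts, and the fibroblast types did. All endothelial types were at or under 4.58 CPM, so that *Hey1* and *Heyl* split between vessel lining and vessel wall. A *Heyl* UMI was seen in 37.4% of pericytes at a median of 1893 UMIs and 0.594% of AT2 cells at 5226 in WT, or 19.6% and 0.198% after thinning.

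*Hes1*, a target that many cell types use, had the smallest ratio of its highest level to its median level among the 10 genes in WT, while *Notch2* had the smallest in KO (2.25 against 2.37 for *Hes1*). Its highest WT level was 252 CPM in club cells (218 to 289), 3.04 times the median of the 24 types, while the highest level was 13.8 times the median for *Notch1*, 100.2 times for *Dll4* and 214 times for *Notch3*. Ciliated cells at 246 CPM, nonclassical monocytes at 213 CPM, pericytes at 194 CPM, aerocytes at 181 CPM and AT1 cells at 168 CPM followed, each overlapping its neighbour. In KO, basal cells were highest at 248 CPM (203 to 300), which overlapped ciliated cells at 207 CPM (197 to 217). AT1 cells stood above AT2 cells in both libraries, with 168 CPM (133 to 209.7) against 56.5 CPM (48.1 to 66.0) in WT and 183 CPM (166 to 201) against 53.8 CPM (51.8 to 55.9) in KO. Thinned to 1000 UMIs, a *Hes1* UMI was seen in 13% of WT AT1 and 5.56% of WT AT2 cells, and in 15.0% and 4.80% in KO, from unthinned shares of 30.1%, 21.8%, 41.1% and 25.7%. The thinned WT intervals overlapped, at 7.27% to 20.8% in AT1 and 3.72% to 7.93% in AT2 cells. Of the 156 WT AT1 cells, 48 were shallower than 1000 UMIs and were left out of the thinned share.

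**Figure D3:**
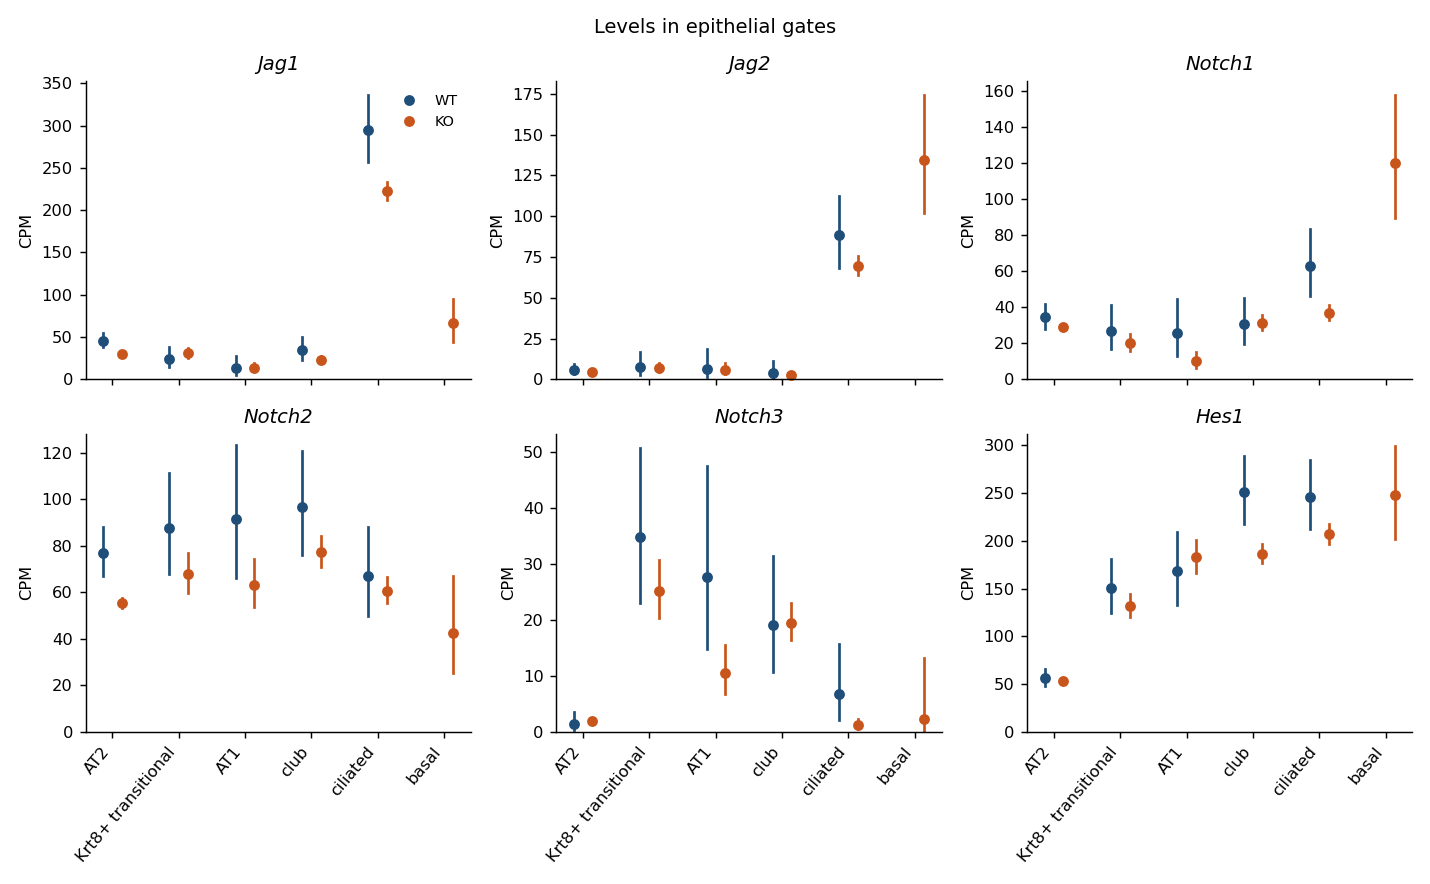
*Jag1*, *Jag2*, *Notch1*, *Notch2*, *Notch3* and *Hes1* in 6 epithelial gates of both libraries, in CPM on linear axes with exact 95% Poisson intervals as bars; basal cells are drawn for KO only, since 4 WT cells passed that gate. *Jag1* peaks in ciliated cells, *Hes1* is higher in AT1, Krt8+ transitional, club and ciliated cells than in AT2 cells, and *Notch3* is near 0 in AT2 cells.

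Myeloid types were far apart in *Hes1*. Nonclassical monocytes, the patrolling monocytes of the vessel lumen, had 213 CPM (195 to 232) in WT against 43.6 CPM (36.1 to 52.2) in classical monocytes, 14.5 CPM (12.4 to 16.8) in interstitial macrophages and 9.54 CPM (7.10 to 12.5) in alveolar macrophages. The share of cells with a *Hes1* UMI was 38.1% and 11.3% in the nonclassical and classical monocytes at median depths of 2425 and 3591 UMIs, and 20.3% and 4.69% after thinning. The 32 nonclassical monocytes of KO had 234 CPM (154 to 341), which overlapped the WT level.

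The lineages that sent and received differed between the libraries along with their makeup. Of the UMIs in typed WT cells, the endothelium held 93.7% for *Dll4*, 91.8% for *Notch4*, 87.6% for *Hey1*, 80.0% for *Jag2*, 71.2% for *Notch1* and 53.9% for *Jag1*. In KO, with 2.97% endothelial cells, these shares were 75.8%, 52.4%, 36.8%, 4.71%, 7.46% and 1.48%, and epithelial cells held 93.7% for *Jag2*, 77.2% for *Notch1* and 94.4% for *Jag1*. Mesenchymal cells held 67.5% of *Notch3* and 78.4% of *Heyl* UMIs in WT and 45.7% and 95.4% in KO, and immune cells 79.5% and 4.32% of *Notch2*. Over all kept cells *Dll4* was at 32.1 (WT) and 2.18 (KO) CPM, over libraries of different makeup, so that the genotypes are compared within cell types below.

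Genes whose pattern over the 40 points was most like that of a member were named by Pearson correlation of log2(CPM + 10), as a description. For *Notch4* these were *Sox7* (0.96), *Adcy4* (0.96) and *Ccm2l* (0.96), for *Dll4* *Wscd1* (0.94), *Notch4* (0.93) and *Kif26a* (0.93), and for *Notch1* *Ushbp1* (0.86), *Tal1* (0.86) and *Lyve1* (0.86), the last a lymphatic gating marker. *Hey1* was closest to *Sema3g* (0.93), an arterial gating marker, *Prdm8* (0.89) and *Ankrd63* (0.88). *Notch3* was closest to *Cdh6* (0.92), *Kcnk3* (0.91) and *Rgs4* (0.90), and *Heyl* to *Tbx5* (0.98), *C1qtnf1* (0.98) and *Ednra* (0.97). *Jag1*, *Jag2*, *Hes1* and *Notch2* had looser partners, led by *Fem1b* (0.82), *Celsr2* (0.85), *Etl4* (0.82) and *Parp8* (0.76), then *Megf6* (0.80) and *Fsd1l* (0.79), *Vangl1* (0.80) and *4930452B06Rik* (0.80), *Nbea* (0.82) and *Ptprk* (0.80), and *Diaph2* (0.72) and *Serp1* (0.72). Among members the closest after *Dll4* and *Notch4* were *Notch1* with *Notch4* (0.83), *Hey1* with *Notch4* (0.82), *Dll4* with *Hey1* (0.81) and *Notch3* with *Heyl* (0.73). The named genes depended in part on the number added to CPM. With log2(CPM + 1), *Notch4* was closest to *Ushbp1*, *Emcn* and *Lyve1* (0.93 each), whereas *Hes1* kept the genes named above.

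For KO against WT, each gene was compared within the 15 shared cell types as a ratio of CPM values, with an exact conditional 95% interval. A pair needed at least 20 UMIs in sum over both libraries. A count of 0 was set to a floor of 3, and a pair was left out where this turned its direction. These rules left 96 of 150 gene and type pairs, of which 76 were lower and 20 higher in KO, with a median log2 ratio of -0.44. The pairs left out despite at least 20 UMIs lay in immune gates and had 0 UMIs in KO. Examples were *Notch4* in interstitial macrophages (38 UMIs in WT) and *Hey1* in T cells (24). Over all genes and the same types 59.9% of pairs were lower and the median was -0.11. Past a 2-fold difference there were 16 pairs lower in KO, against 8.37% of all pairs in that direction, and 5 pairs higher, against 4.89%.

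**Figure D4:**
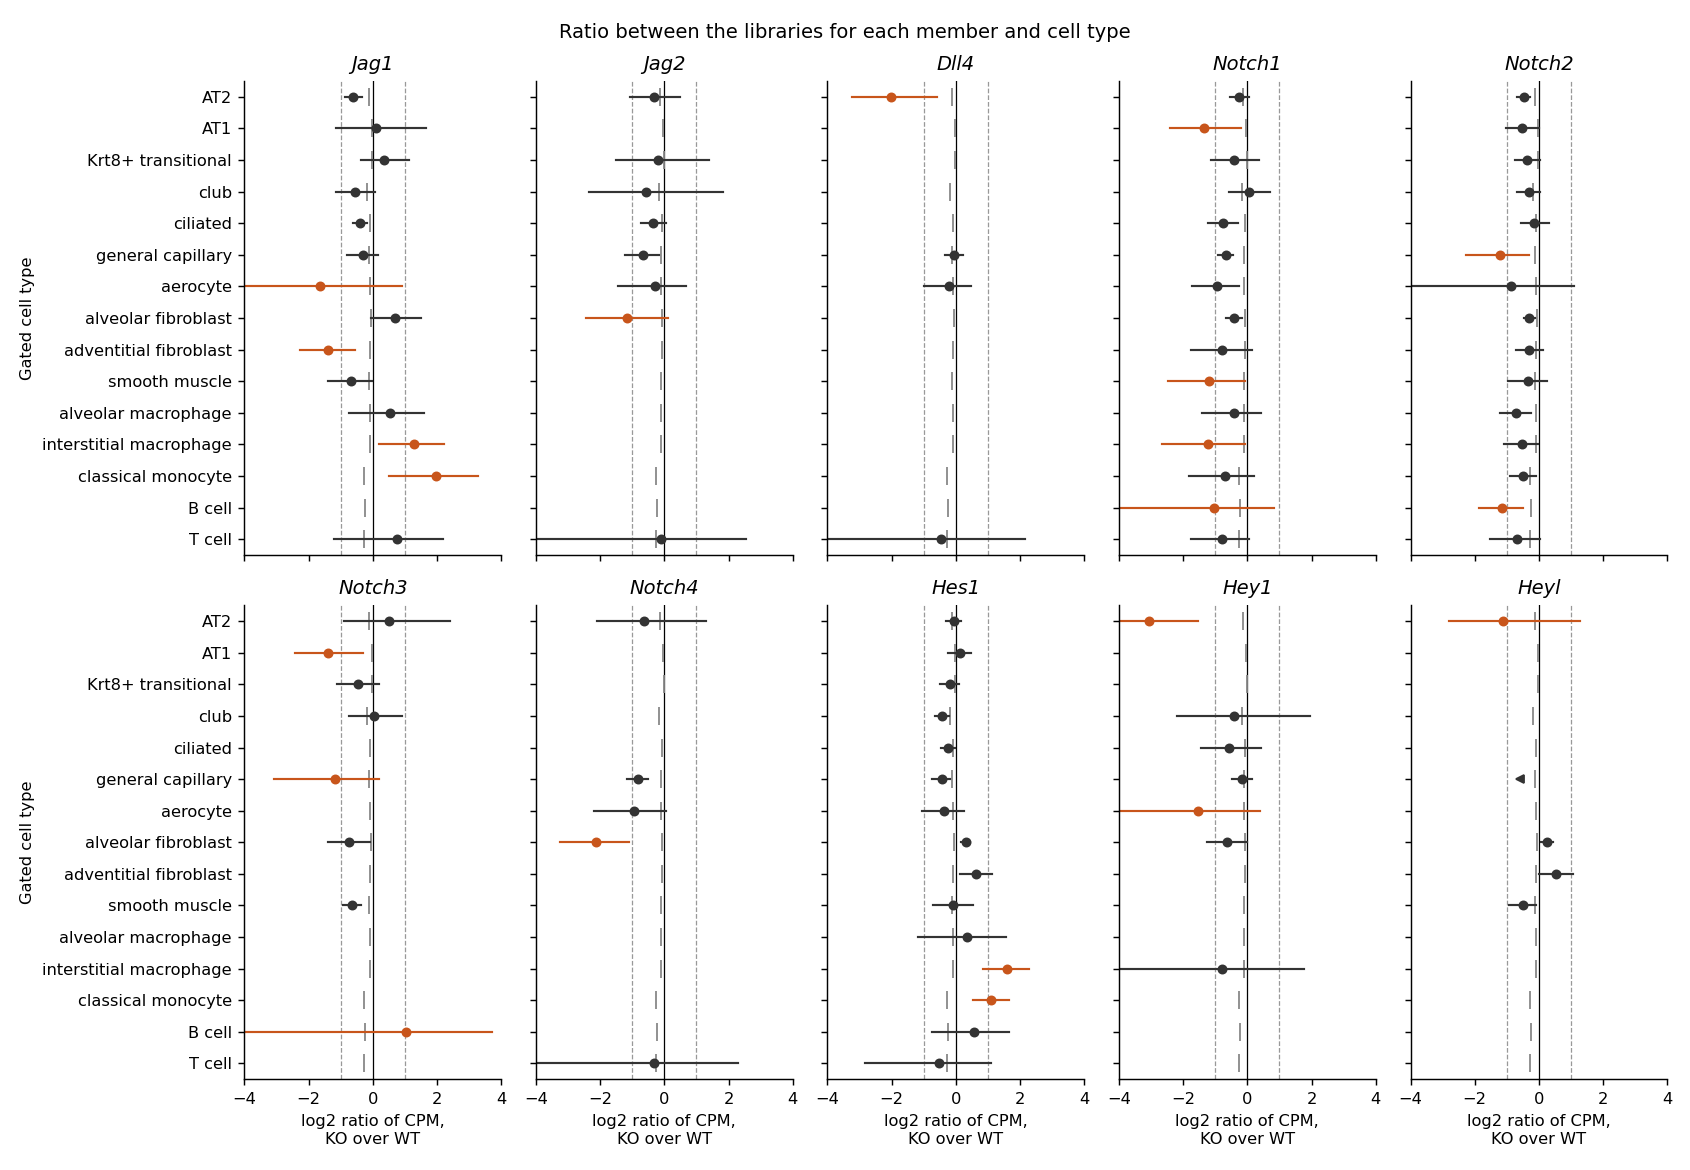
Log2 ratio of KO to WT CPM for each Notch gene in the 15 shared cell types, with exact conditional 95% intervals drawn to at most 4 either way; orange points are past 2-fold, triangles are bounds against 0 UMIs, grey ticks are the median of all genes in the type and dashed lines mark 2-fold. Most *Notch1* and *Notch2* points lie left of 0, and *Hes1* points lie on both sides.

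The receptors leaned to lower values in KO. *Notch2* was lower in 15 of 15 types, a count that 3.5% of the genes measured in all 15 types reached, with a median log2 ratio of -0.49 and a range from -1.21 to -0.14. *Notch1* was lower in 14 of 15 types, which 10.4% of those genes reached or passed, with a median of -0.77. *Hes1*, the target measured in all 15, was lower in 8 and higher in 7, with a median of -0.07. *Notch1* and *Notch2* were thus lower in most types of the KO library, whereas *Hes1* had no common direction. These directions depended on depth and gating in some types, since over the alternatives *Notch2* turned in 5 of 15 types, up to 1.54 in ciliated and 1.32 in club cells with UMIs thinned to 1000, and *Notch1* in 4 of 15. The immune marker list, whose cells had the highest *Notch2*, was lower in KO in all 10 non-immune shared gates, at 266 to 824 CPM in WT and 34.5 to 222 CPM in KO, and its part was not tested.

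In general capillary cells all 10 genes were compared and 10 were lower in KO, as were 59.2% of all genes there, 2 of them past 2-fold, where 14.1% of all genes were past 2-fold in either direction. *Notch1* was at 248 CPM in WT and 156 CPM (132 to 182) in KO, a log2 ratio of -0.67 (-0.91 to -0.44), and *Notch4* at 145 and 82.4 CPM (65.4 to 102), a log2 ratio of -0.82 (-1.15 to -0.50). The ligand *Dll4* was at 119.6 and 115 CPM (-0.06, -0.34 to 0.22) and its vascular target *Hey1* at 111 and 99.6 CPM (-0.16, -0.47 to 0.13). The intervals of both receptors lay wholly below those of *Dll4*, while the *Notch1* interval met that of *Hey1* at its edge. *Hes1* was at 156 and 115 CPM (-0.44, -0.73 to -0.17, turning to 0.09 with gates read on thinned cells), *Jag2* at 51.6 and 32.5 CPM (-0.67, -1.22 to -0.16) and *Jag1* at 50 and 40.7 CPM (-0.30, -0.79 to 0.16). The pairs past 2-fold were *Notch2*, at 23.5 and 10.2 CPM from 389 and 10 UMIs (-1.21, -2.28 to -0.31), and *Notch3*, at 9.29 and 4.07 CPM from 154 and 4 UMIs, whose interval spanned 0. *Heyl* had 76 UMIs in WT and 0 in KO, at least 1.5-fold lower against a floor of 3 UMIs. The endothelial marker list stood at 12672 and 12326 CPM in these gates, the immune list at 824 (12 of 12 genes detected) and 210.5 CPM (9 of 12), and *Sftpc*, an AT2 transcript, at 2011 and 17717 CPM, whose part in these ratios was not tested.

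Aerocytes, 740 in WT and 52 in KO, gave the same direction for 8 of 8 genes compared, against 56.9% of all genes, with 2 past 2-fold where 17% of all genes were. *Notch1* was at 212 and 109.6 CPM (log2 -0.95, -1.72 to -0.27) and *Notch4* at 94.8 and 48.7 CPM (-0.96, -2.19 to 0.05), whereas *Dll4* was at 126 and 109.6 CPM (-0.21, -0.98 to 0.48). The ligand and receptor ratios overlapped here, as KO gave 18, 8 and 18 UMIs of *Notch1*, *Notch4* and *Dll4*. *Jag1* (38 and 1 UMIs, -1.65, -6.99 to 0.92) and *Hey1* (70 and 2 UMIs, -1.53, -4.60 to 0.38) were past 2-fold with intervals that spanned 0. *Sftpc* stood at 1713 and 16356 CPM in the aerocyte gates, and its part was not tested. Arterial, venous and lymphatic cells could not be compared, since 6, 23 and 8 cells passed those gates in KO.

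In smooth muscle cells *Notch3* was at 329.6 (WT) and 209 (KO) CPM (log2 -0.66, -0.94 to -0.38) and its mural partner *Heyl* at 142 and 99.6 CPM (-0.51, -0.93 to -0.10). A *Notch3* UMI was seen in 52.0% of WT and 37.7% of KO cells at median depths of 4423 and 5107 UMIs, and in 27.7% and 12.7% after thinning. All 6 genes compared were lower in KO, as were 59.0% of all genes, and 1, *Notch1* at 27.4 and 12 CPM (-1.20, -2.46 to -0.07), was past 2-fold, where 8.28% of all genes were. The endothelial list stood at 277 and 66.4 CPM in these cells with 11 of 12 genes detected in each, and its part was not tested. The 37 KO pericytes, too few to be compared, had 1102 CPM of *Notch3* (913 to 1319) and 241 CPM of *Heyl* (157 to 353), both overlapping WT.

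In the fibroblasts *Hes1* and *Heyl* were above their WT level. In alveolar fibroblasts *Hes1* was at 101 (WT) and 124 (KO) CPM (log2 0.30, 0.16 to 0.44) and *Heyl* at 57.6 and 68.8 CPM (0.26, 0.07 to 0.45), with *Notch1* at 39.2 and 29.4 CPM (-0.41, -0.67 to -0.16) and *Notch2* at 89.1 and 72.6 CPM (-0.29, -0.46 to -0.13). In adventitial fibroblasts *Hes1* was at 56.5 and 86.7 CPM (0.62, 0.14 to 1.12) and *Heyl* at 51.0 and 73.4 CPM (0.53, 0.01 to 1.06), with intervals of *Notch1* (-1.75 to 0.14) and *Notch2* (-0.72 to 0.14) that spanned 0. The third target, *Hey1*, was lower in KO alveolar fibroblasts, at 7.28 and 4.71 CPM (-0.63, interval ending at 0). Past 2-fold were *Notch4* (-2.13, -3.24 to -1.11) and *Jag2* (-1.15, -2.45 to 0.13) in alveolar fibroblasts, 2 of 9 genes where 10.8% of all genes were, and *Jag1* in adventitial fibroblasts, at 36.6 and 14 CPM (-1.39, -2.27 to -0.54), 1 of 5 where 7.01% were. The endothelial marker list moved with the vessel genes in alveolar fibroblasts, at 455 (WT) and 72.5 (KO) CPM with 12 of 12 genes detected in each, and in adventitial fibroblasts at 429 and 118 CPM. Higher in KO, as *Hes1* was, were the epithelial list (107 and 243 CPM in alveolar, 84.2 and 138 CPM in adventitial fibroblasts), *Sftpc* (1351 and 10794 CPM, 444 and 6333 CPM) and immediate early genes (4310.0 and 5314 CPM, 3777 and 5209 CPM). The part of these values in the ratios was not tested.

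Among epithelial cells, Krt8+ transitional, club and ciliated cells had 0 genes past 2-fold, of 6, 7 and 6 compared, where 9.29%, 12.7% and 8.32% of all genes were. In ciliated cells *Jag1* was at 295 and 222 CPM (log2 -0.41, -0.61 to -0.20) and *Notch1* at 62.9 and 36.9 CPM (-0.77, -1.22 to -0.29), and in club cells *Hes1* was at 252 and 186 CPM (-0.43, -0.65 to -0.21). With thinned UMIs *Notch1* in ciliated cells turned to 0.69, and with gates read on thinned cells *Jag1* there turned to 0.09. The endothelial list stood at 199.5 and 28.4 CPM in ciliated and 147 and 63.1 CPM in club cells, and its part was not tested. In Krt8+ transitional cells every interval spanned 0, with *Jag1* at 24.5 and 31.0 CPM (0.34, -0.37 to 1.12), *Notch3* at 34.8 and 25.1 CPM (-0.47, -1.10 to 0.20) and *Hes1* at 151 and 132 CPM (-0.19, -0.48 to 0.11). Differences within these intervals were not detectable at this depth.

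AT1 cells had 2 of 5 genes past 2-fold, where 9.29% of all genes were. *Notch1* was at 25.6 and 10.1 CPM from 12 and 24 UMIs (log2 -1.35, -2.40 to -0.21) and *Notch3* at 27.7 and 10.5 CPM from 13 and 25 UMIs (-1.40, -2.42 to -0.31), while *Hes1* was at 168 and 183 CPM (0.12, -0.23 to 0.48). In the main setting these receptors were lower in the KO gate and *Hes1* was not. Over 11 alternatives *Hes1* ranged from -0.34 to 0.67. The 10 leading genes of the gate held 3 AT1 and 2 Krt8+ transitional markers in WT, against 5 and 0 in KO. The part of this difference in the ratios was not tested. The WT AT1 cells had a median of 1915 UMIs against 4231 in KO, and the endothelial list stood at 296 and 21.8 CPM in them with 11 of 12 genes detected in each, whose part was not tested.

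AT2 cells, the surfactant-making progenitors of the alveolus, had 3 of 10 genes past 2-fold, where 9.86% of all genes were. These were *Dll4* (7 and 31 UMIs, log2 -2.01, -3.23 to -0.59), *Hey1* (7 and 15 UMIs, -3.06, -4.44 to -1.53) and *Heyl* (3 and 25 UMIs, -1.10, -2.82 to 1.27), all at or under 2.49 CPM in both libraries. The endothelial list moved the same way, from 157 CPM in WT to 32.8 CPM in KO AT2 cells with 12 of 12 genes detected, a log2 ratio of -2.26 (-2.41 to -2.10), and its part was not tested. Of the genes that AT2 cells had at more than 20 CPM, *Jag1* was at 45.8 and 30.1 CPM (-0.61, -0.87 to -0.34, turning to 0.14 with gates read on thinned cells), *Notch2* at 77.1 and 55.3 CPM (-0.48, -0.68 to -0.27), *Notch1* at 34.5 and 29.0 CPM (-0.25, -0.54 to 0.06) and *Hes1* at 56.5 and 53.8 CPM (-0.07, -0.30 to 0.17).

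The genes past 2-fold that were higher in KO lay in immune gates of 59 to 97 KO cells. In interstitial macrophages *Hes1* was at 14.5 (WT) and 44.2 (KO) CPM (171 and 20 UMIs, log2 1.61, 0.86 to 2.28) and *Jag1* at 9.07 and 22.1 CPM (107 and 10 UMIs, 1.28, 0.18 to 2.22), whereas *Notch1* was at 30.7 and 13.3 CPM (-1.21, -2.67 to -0.08), 3 of 5 genes where 15.4% of all genes were past 2-fold. In classical monocytes *Hes1* was at 43.6 and 94.1 CPM (1.11, 0.52 to 1.66) and *Jag1* at 5.54 and 21.5 CPM from 15 and 8 UMIs (1.96, 0.51 to 3.29), 2 of 4 genes where 20.7% were. With every cell thinned to 1000 UMIs the classical monocyte ratio of *Hes1* was -0.13, so that its direction was not stable. The epithelial marker list moved with these values, at 109.6 (WT) and 490.4 (KO) CPM in interstitial macrophages and at 125 and 728 CPM in classical monocytes, with 12 of 12 genes detected in each, and none of the classical monocyte gating markers was among the 10 leading genes of the KO gate. Its part in these ratios was not tested.

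B cells, 64 in KO, had 3 of the 4 genes compared past 2-fold, where 24.9% of all genes were. *Hey1* (41 UMIs in WT), *Notch4* (37), *Jag1* (32) and *Jag2* (26) had 0 UMIs in KO and were left out. *Notch2* was at 239 (WT) and 108 (KO) CPM from 1651 and 19 UMIs (log2 -1.15, -1.88 to -0.50), while *Notch1* (162 and 2 UMIs, -1.04, -4.10 to 0.83) and *Notch3* (19 and 1 UMIs, 1.05, -4.33 to 3.70) had intervals that spanned 0. The epithelial list stood at 108 and 659 CPM and the endothelial list at 818 and 233 CPM in these gates, and their part was not tested. T cells had 0 of 7 and alveolar macrophages 0 of 4 compared genes past 2-fold, where 20.6% and 13.8% were. In alveolar macrophages *Notch2* was at 132 and 80.6 CPM (-0.71, -1.21 to -0.25).

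The rest of the pathway was read from a list of 48 other genes in 7 roles. It gave 502 pairs, 368 of them lower in KO, or 73.3% against 59.9% of all pairs, with a median log2 ratio of -0.23. Past 2-fold were 39 pairs lower in KO (7.77% against 8.37% of all pairs) and 4 higher (0.797% against 4.89%), so that the list had no excess of large ratios, and 19 of its 48 genes (39.6% against 30.8% of all genes) were highest in an endothelial or mural type of WT. In either direction 13.3% of all pairs were past 2-fold. Among the other ligands *Dll1* was at 99.4 CPM in WT venous cells, where *Dll4* was low, and at 67.4 and 58.0 CPM in general capillary cells of WT and KO. *Dlk2*, a non-canonical ligand, was at 118 CPM in KO basal cells and *Dll3* at 1.27 CPM in its highest WT type. Of the genes for ligand endocytosis, which ligands need to pull on the receptor, *Neurl3* was highest in neutrophils at 209 CPM, *Mib1* in lymphatic cells at 190.0 CPM (28 UMIs) and *Neurl1a* in ciliated cells at 56.2 CPM.

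Glycosyltransferases tune which ligand a receptor answers. *Mfng* was highest in aerocytes, at 112 and 128 CPM in WT and KO, and *Lfng* in natural killer cells at 72.8 CPM. *Poglut1*, which adds glucose to the receptor, was highest in dendritic cells at 43.2 CPM, near alveolar fibroblasts at 40.4 CPM and pericytes at 37.1 CPM. These 5 genes gave 12 of 58 pairs past 2-fold (20.7%), 11 of them lower in KO, such as *Poglut1* in general capillary cells at 25.4 and 11.2 CPM (log2 -1.18, -2.20 to -0.33). The 10 protease genes gave 12 of 143 (8.39%), such as *Psen2*, the catalytic part of some gamma-secretase complexes, which was highest in arterial cells at 277 CPM and at 30.0 and 11.2 CPM in general capillary cells (-1.42, -2.44 to -0.57). *Adam10*, which makes the outer cut, was highest in lymphatic cells at 475 CPM. *Psenen* was highest in alveolar macrophages at 203 CPM, near Krt8+ transitional cells at 199 CPM and ciliated cells at 192 CPM.

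The 8 genes of the nuclear complex gave 3 of 120 pairs past 2-fold (2.5%). *Rbpj*, the DNA-binding partner of the receptors, was highest in dendritic cells at 524 CPM, then interstitial macrophages at 426 CPM, in WT. It was lower in KO in 14 of 15 types. In AT1 cells it was at 107 (WT) and 50.7 (KO) CPM (-1.07, -1.56 to -0.57). The immune marker list stood at 362 and 134 CPM in the AT1 gates, and its part was not tested. The coactivators *Maml3* and *Maml2* were highest in pericytes at 585 CPM and T cells at 546 CPM. For *Maml2*, B cells at 531 CPM and alveolar fibroblasts at 528 CPM were close to T cells. For *Maml3*, the pericyte level came from 142 UMIs, with AT2 cells at 493 CPM and alveolar fibroblasts at 451 CPM next. In KO, *Maml3* was highest in AT2 cells at 466 CPM. Of the 9 genes of receptor turnover, *Numb*, which holds Notch back, was highest in aerocytes at 473 CPM, near general capillary cells at 448 CPM. *Itch* was highest in nonclassical monocytes at 264 CPM and *Fbxw7* in natural killer cells at 157 CPM, near B cells and aerocytes at 140 CPM each. Past 2-fold were 6 of 102 pairs (5.88%), such as *Dtx4* in Krt8+ transitional cells at 29.7 and 13.8 CPM (-1.11, -1.85 to -0.33). Among the 7 other HES and HEY genes *Hes6* was highest in ciliated cells, at 262 and 233 CPM in WT and KO. *Hey2* was at 46.2 CPM (23 UMIs) in WT arterial cells, 41.2 CPM in pericytes and 39.1 CPM in smooth muscle cells. Unlike *Hey1*, it was low in general capillary cells, at 1.57 CPM, and in KO it was highest in smooth muscle cells at 35.9 CPM. *Helt* was at 4.26 CPM from 2 UMIs. Past 2-fold was 1 of 20 pairs (5%), *Hes2* in AT2 cells at 2.84 and 6.41 CPM (1.17, 0.18 to 2.40).

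In all, 28 pathway pairs were past 2-fold with at least 50 UMIs in sum. The share of all pairs at that minimum was not computed, so the count describes the list only. At the minimum of 20 UMIs, from 7.01% (adventitial fibroblasts) to 24.9% (B cells) of all genes in a type were past 2-fold. The pairs not yet named included the following, given without counts or intervals. The minimum holds for the sum of both libraries, so a pair can rest on few KO UMIs. In aerocytes the member pairs *Hey1* (70 and 2 UMIs) and *Jag1* (38 and 1 UMIs) had intervals that spanned 0. The ratios below from aerocyte and immune gates are therefore not read as detected differences. In AT2 and AT1 cells they were *Neurl3* (log2 -1.10) and the gamma-secretase gene *Aph1c* (1.00), the latter higher in KO. In aerocytes they were *Lfng* (-1.65), *Furin* (-1.30) and *Ncstn* (-1.43), and in smooth muscle cells *Aph1a* (-1.08). Alveolar macrophages and interstitial macrophages had *Mib2* (-2.19 and -1.05) and *Rfng* (-1.24 and -1.88), and classical monocytes *Neurl3* (-1.30), *Lfng* (-3.09) and *Furin* (-1.70). T cells had *Mfng* (-1.05), *Aph1a* (-1.20), *Maml3* (-1.58) and *Dtx4* (-1.96), and B cells *Poglut1* (-1.04), *Spen* (-1.98), *Fbxw7* (-1.30) and *Dtx2* (-1.26), with *Ncstn* at 308 UMIs in WT and 0 in KO.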

How the data were processed

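The data were 1 library of *Pclaf* WT and 1 of *Pclaf* KO lung cells, made with 10x Genomics 3' chemistry. The deposited values are whole-number UMI counts for every gene in every barcode, which the authors obtained with Cell Ranger 3.1.0 and STAR on GRCm38 (mm10) per the submitters' processing notes, while the matrix headers name Cell Ranger 5.0.0. The lowest barcode held 500 UMIs. No other column of sample values was present (0 unmapped columns).

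Barcodes with more than 200 and fewer than 5000 genes and under 20% mitochondrial UMIs were kept. A cell took a lineage with at least 3 of its 8 to 12 markers detected and at least 2 more than any other lineage, and then the type with the most of its 8 markers, at least 2, without a tie. Of kept cells, 72.2% of WT and 81.1% of KO got a type. No doublet caller was run, and barcodes with 2 markers of another lineage were left out as an alternative. UMIs were summed per library and type, with at least 50 cells for the text's orders and ratios, and given as CPM with exact Poisson intervals. Ratios used exact conditional binomial intervals, shares Clopper-Pearson intervals, all at 95%, and a library at 0 was set to a floor of 3 counts. Since free RNA was not removed, shares were set beside AT2 cells and after thinning to 1000 UMIs. Only pairs with at least 20 UMIs over both libraries were compared, and pairs whose direction the floor turned were left out. The log2 ratio and its interval were tested on counts simulated for the AT2 gate from the Poisson model that the interval assumes. That test covered neither spread among cells nor gates with few UMIs, and the other steps were not simulated.

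Named were all 10 members, per pathway role up to 3 genes with the highest WT level and those past 2-fold with at least 50 UMIs, and per member the 3 most correlated genes; 1 gene that this rule names is not reported here. Members, lists and gates were chosen with earlier results of these data known, and the ETS letters after the sequences were seen. There were 10 alternatives on cells and counts planned, beside other folds and UMI minimums, and 1, gates read on thinned cells, was added after seeing the data. Python 3.11.15, numpy 2.4.6, scipy 1.17.1, pandas 2.3.3 and matplotlib 3.10.9 were used.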

Additional observations from a re-analysis of the deposited data

Results flagged for a closer look

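*Jag1* drew attention because its KO to WT difference pointed in opposite directions in different cell types, with intervals on opposite sides of 0. This was not particular to *Jag1*, since *Hes1* had 3 intervals below 0 and 4 above, and *Heyl* 1 below and 2 above. *Jag1* was higher in KO interstitial macrophages, by 1.28 on the log2 scale (10 KO UMIs), and in KO classical monocytes, by 1.96 (8 KO UMIs). It fell short of WT in adventitial fibroblasts, at -1.39 (20 KO UMIs). The difference between these cell types was not tested, since each genotype had 1 library. The epithelial marker list was higher in KO in all 3 gates, at 490.4 against 109.6 CPM, 728 against 125 CPM and 138 against 84.2 CPM. The endothelial marker list was lower in KO in all 3, at 124 against 408 CPM, 94.1 against 621 CPM and 118 against 429 CPM. The part of either list was not tested.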

How the results depend on the processing

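The count of 21 of 96 gene and type pairs past 2-fold moved with the threshold, with cell selection and with depth. It was 10 of 51 pairs without barcodes that held 2 markers of another lineage, 11 of 52 with each cell thinned to 1000 UMIs, and 4 of 34 with the gates read on thinned cells, a setting chosen after seeing the data. A fold of 1.5 gave 44 pairs, a fold of 3 gave 6, and a minimum of 50 UMIs gave 10 of 74. The other settings gave 15 to 24. In the main setting 13.3% of all gene and type pairs were past 2-fold in either direction. This share was not computed for the other settings, so their counts have no background. Of the 21 pairs, 3 stayed past 2-fold with thinned UMIs and 1 with gates read on thinned cells, while fewer pairs reached the UMI minimum in both. *Hes1* in classical monocytes reversed to -0.13 with thinned UMIs, and the cause was not tested. In general capillary cells *Notch1* ranged from -0.70 to -0.56 and *Notch4* from -1.03 to -0.75 over 11 alternatives, *Dll4* from -0.31 to -0.02, *Hey1* from -0.20 to 0.12 and *Notch2* from -2.32 to -0.41. Of the 96 pairs, 28 turned direction in at least 1 alternative, among them *Hes1* in general capillary cells (up to 0.09). The number of genes highest in an endothelial or mural type was 6 to 8 in WT and 6 in KO. Depth limits the immune and aerocyte ratios, where KO gave 1 to 55 UMIs per gene compared. No paired analysis was possible because each genotype had 1 library.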

Other observations

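Endothelial cells with at least 3 cell cycle markers detected, 126 in WT, had less *Dll4* than the 8336 other WT endothelial cells, at 55.1 CPM (38.2 to 77.0) against 117 CPM (113 to 122). *Notch4* was at 100.5 CPM (77.1 to 129) against 133 CPM (128 to 138) and *Hey1* at 73.0 CPM (53.2 to 97.6) against 100.4 CPM (96.2 to 105), and *Hes1* at 169 CPM (138 to 204) against 152 CPM (147 to 157). The intervals stood apart for *Dll4* and overlapped for the other 3 genes. Median depths were 4031 and 1983 UMIs. The cycling cells included 96 general capillary cells, 6 venous cells, 3 aerocytes and 0 of the 170 arterial cells, which had the highest *Dll4*. The groups thus also differ in cell type. In WT immune cells *Hes1* was at 13.9 CPM (10.8 to 17.7) in 602 cycling cells and 32.4 CPM (30.7 to 34.1) in 12051 others, which also differ in cell type.

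Dendritic cells of WT, which were lowest for *Notch1* at 11.2 CPM, had 10.5 CPM of *Notch4* (7.11 to 15.0) and 10.2 CPM of *Jag2* (6.82 to 14.6), the highest levels of both among WT immune types, though the *Notch4* interval overlapped those of neutrophils (7.87 CPM, 4.19 to 13.5), both monocyte types, natural killer cells and B cells, while their endothelial marker list stood at 186 CPM.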
